A study of Rattus norvegicus with 36 samples.

Results

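Protein phosphatases were taken as the genes whose platform symbol begins with Ppp, Ppm1, Ptpn, Ptpr or Dusp, read from probe sets that carry 1 symbol. That gave 107 probe sets of 65 genes, out of 4736 genes with a symbol on the array. Each gene was represented by its probe set with the highest mean signal over all arrays, and 27 of the 65 had more than 1. The families were Ppp1 (15 genes), Ppp2 (7), calcineurin or Ppp3 (4), other Ppp (3), Ppm1 (2), Dusp (5), Ptpn (11) and Ptpr (18). Another 2 phosphatase probe sets, of Ppp2ca together with Ppp2cal1, carry several symbols and were left out, so the major catalytic subunit of protein phosphatase 2A in muscle is not among the members.

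Rat skeletal muscle, which the labels mark as "ta", was hybridised to 36 one-colour arrays as total RNA or as polysomal RNA, the fraction bound to several ribosomes. Exercised muscle came from 1 h after resistant contractions (numbers 1 and 2 in each fraction) and from 6 h after them (numbers 1 to 4 in each fraction). Uncontracted muscle came as a polysomal control of 4 numbers and as a control titled 1hr polysome of 2 numbers. Each number has 2 arrays, which were averaged on the log2 scale to 1 replicate, so the 6 groups hold 18 replicates. Both controls are described as collected at 1 h. The description of the control titled 1hr polysome names no polysomes, against its title, and the molecule label reads total RNA for every sample, so no group is clearly total RNA of uncontracted muscle. Neither strain nor sex nor age is given in the sources used here. Nothing in the labels says whether numbers are separate animals, so a p-value here rests on the spread between samples alone, and that spread may be technical. In whole muscle, fewer cells of a type and less RNA per cell cannot be told apart.

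Protein phosphatases remove phosphate from serine, threonine or tyrosine and so reverse the action of kinases. Protein phosphatases 1 and 2A each have few catalytic subunits and gain their targets from many regulatory subunits, among them those that set glycogen use, myosin light chain state and translation. Calcineurin is switched on by calcium and calmodulin and drives NFAT factors into the nucleus, a route known for its part in slow fibre gene expression. Dual-specificity phosphatases of the Dusp family inactivate MAP kinases, and several of them are early response genes of the kinases they restrain.

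The deposited signals were already on a common scale, with 2% trimmed means of 801 to 802 on the 36 arrays. Arrays of the same number correlated at 0.897 to 0.981, and other pairs at 0.775 to 0.975. Of 13 skeletal muscle fibre markers 10 were measured, none at the floor on every array, and their summed signal ran from 82326 to 334536 per number. Signals were floored at 129.5, the 40th percentile of all values, and 56 of the 65 phosphatase genes were above that floor on at least 4 arrays and were tested. The 9 that were not tested are Dusp4, Ppp1r9a, Ppp1r3b, Ppp3r2, Ptpru, Ptprh, Ptprv, Ptprz1 and Ptprd. Of the Ptpr family only 13 of 18 were tested, and its median mean signal was 138, against 284 for all genes, 678 for Ppp1 and 1731 for Ppp2. Every change below is a log2 difference from a limma fit over all 6707 tested probe sets, with its standard error (SE) and a p-value adjusted by the Benjamini-Hochberg method, called at an adjusted p under 0.05.

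Some libraries stood apart. On both arrays of number 3 in 6 h total RNA the ratio of the 3 prime to the 5 prime actin control was 9.01 and 11.5, against at most 1.58 on the other 6 arrays of that group. The same ratio of the GAPDH control was 11.4 and 9.73 on these arrays. It was lowest on the first array of polysomal control numbers 1 (0.0742) and 2 (0.0374) and of 6 h polysomal number 2 (0.0702). The part of the GAPDH ratio in the values below was not tested. Titles of the 6 h set name the arrays of numbers 1 and 2 in one style and those of numbers 3 and 4 in another. Values within each style are given, with the adjusted p in brackets, for the 6 h polysomal minus total differences printed below whose call or direction differed. Differences not printed can also turn between the styles without passing, among them Dusp7 (0.56 and -0.07), Ppp5c (0.67 and -0.22) and Ppp2r3a (0.31 and -0.08). In the control titled 1hr polysome the array titled 2bA correlated at 0.949 with mean 1 h total RNA and at 0.913 with mean 1 h polysomal RNA. The 3 other arrays of that control had the opposite order, 0.905 to 0.921 with total and 0.960 to 0.967 with polysomal RNA.

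The MAP kinase phosphatases Dusp1 and Dusp5 and the protein phosphatase 1 subunit Ppp1r15a had the 3 highest responses of all 56 tested phosphatases in polysomal RNA 6 h after contractions. Dusp1 acts in the nucleus on JNK, p38 and ERK, and Dusp5 acts there on ERK. Ppp1r15a (GADD34) directs protein phosphatase 1 to the translation factor eIF2alpha and so restores protein synthesis after stress. Their promoters are shown because these genes were high together, each as the 250 bases before the transcription start in RefSeq's GRCr8 assembly, on the gene's strand. Capitals mark the motif matches described after them. The Dusp1 promoter is chr10:17184603-17184852 (plus strand), that of Dusp5 chr1:262543524-262543773 (plus strand) and that of Ppp1r15a chr1:105139597-105139846 (minus strand).
Dusp1: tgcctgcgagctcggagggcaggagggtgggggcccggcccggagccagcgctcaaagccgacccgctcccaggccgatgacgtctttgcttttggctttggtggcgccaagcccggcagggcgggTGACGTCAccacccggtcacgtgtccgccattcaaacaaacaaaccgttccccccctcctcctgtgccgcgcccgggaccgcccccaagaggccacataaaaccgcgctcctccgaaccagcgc
Dusp5: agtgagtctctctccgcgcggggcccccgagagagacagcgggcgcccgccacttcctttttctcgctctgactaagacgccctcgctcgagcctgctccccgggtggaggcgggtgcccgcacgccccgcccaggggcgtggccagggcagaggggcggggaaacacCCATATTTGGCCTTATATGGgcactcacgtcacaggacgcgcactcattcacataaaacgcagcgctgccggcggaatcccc
Ppp1r15a: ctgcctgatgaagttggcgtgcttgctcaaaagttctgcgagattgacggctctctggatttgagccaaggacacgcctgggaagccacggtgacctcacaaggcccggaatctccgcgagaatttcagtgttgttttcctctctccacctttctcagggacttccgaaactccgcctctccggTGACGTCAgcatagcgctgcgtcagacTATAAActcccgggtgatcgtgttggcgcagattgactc

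Motifs were searched on both strands of these 250 bases in 33469 rat promoters, 60 of them of members. The full cyclic AMP response element TGACGTCA lay 124 to 117 bases before the start of Dusp1 and 66 to 59 bases before that of Ppp1r15a, where a TATA box (TATAAA) followed at 39 to 34. Dusp5 held 2 adjoining CArG boxes, the letters bound by serum response factor, at 82 to 73 and 72 to 63 bases before its start. Of all promoters 1.59% held the cyclic AMP response element and 1.5% a CArG box. Among members, 4 of 60 (6.67%) held the former (Dusp1, Ppp1r15a, Ptprs and Ptpru) and 1 the latter. The AP-1 site TGACTCA, in 4.05% of all promoters, was in none of the 60. The CCAAT box (CCAAT) was in 34% of all promoters and 18 members (30%), the EGR site (GCGTGGGCG or GCGGGGGCG) in 2.85% and 5 members (8.33%), and TATAAA in 12.9% and 4 members. These are matches of letters, not measured sites.

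In 6 h polysomal RNA against the polysomal control, limma called none of the 56 phosphatases, where 0.384% of 3902 genes were called. At an unadjusted p under 0.05, 3 phosphatases were higher and none lower, against 3.1% and 2.87% of all genes. The median difference of the 56 was 0.00, against -0.04 for all genes. The descriptions give 6 h for the exercised muscle and 1 h for this control.

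Ppp1r15a had signals of 3983, 3249, 5272 and 5225 in 6 h polysomal RNA, against 779, 952, 1549 and 1535 in the polysomal control. Every exercised number was thus above every control number. The difference was 1.91 (SE 0.45, 3.77-fold), with an adjusted p of 0.106. That fit has no pairing, and no label says that equal numbers of these 2 groups are pairs. With the number as a block the same difference passed with an adjusted p of 0.0478, the only call among the phosphatases in the block fit. Its other probe set stood at 2.26 (adjusted p = 0.109). In total RNA Ppp1r15a read 1073, 4239, 3114 and 7055 at 6 h, around the polysomal values.

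Dusp5 gave 579, 488, 800.0 and 808 in 6 h polysomal RNA and 311, 255, 322 and 323 in its control. Every exercised number was above every control number, and the difference of 1.12 (SE 0.27, 2.17-fold) had an adjusted p of 0.125, or 0.0826 with the block. In total RNA Dusp5 read 655 and 464 at 1 h and 439, 715, 1119 and 987 at 6 h, overlapping the polysomal values at both times.

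For Dusp1 the 6 h polysomal signals were 529, 995, 1083 and 799, against 464, 156, 129.5 and 129.5 in the control, where numbers 3 and 4 lay at the floor. All 4 exercised numbers were above all 4 controls, but number 1 of the control was near the lowest exercised value. The difference of 2.14 (SE 0.82, 4.40-fold) did not pass (adjusted p = 0.617). Both other probe sets had this direction, at 0.62 and 0.64.

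Dusp6 and Dusp7 act on ERK in the cytoplasm. In 6 h polysomal RNA Dusp7 read 847, 218, 308 and 374, against 1053, 809.5, 536 and 410.1 in the control, a difference of -0.79 (SE 0.37, adjusted p = 0.897). Dusp6 stood at 0.50 (SE 0.29, adjusted p = 1.00), with -0.11 within numbers 1 and 2 and 1.11 within numbers 3 and 4. The other probe set of Dusp6 stood at 0.03. Both genes overlapped between the groups, and Dusp7 was the only one of the 4 tested Dusp genes below 0.

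**Figure D1:**
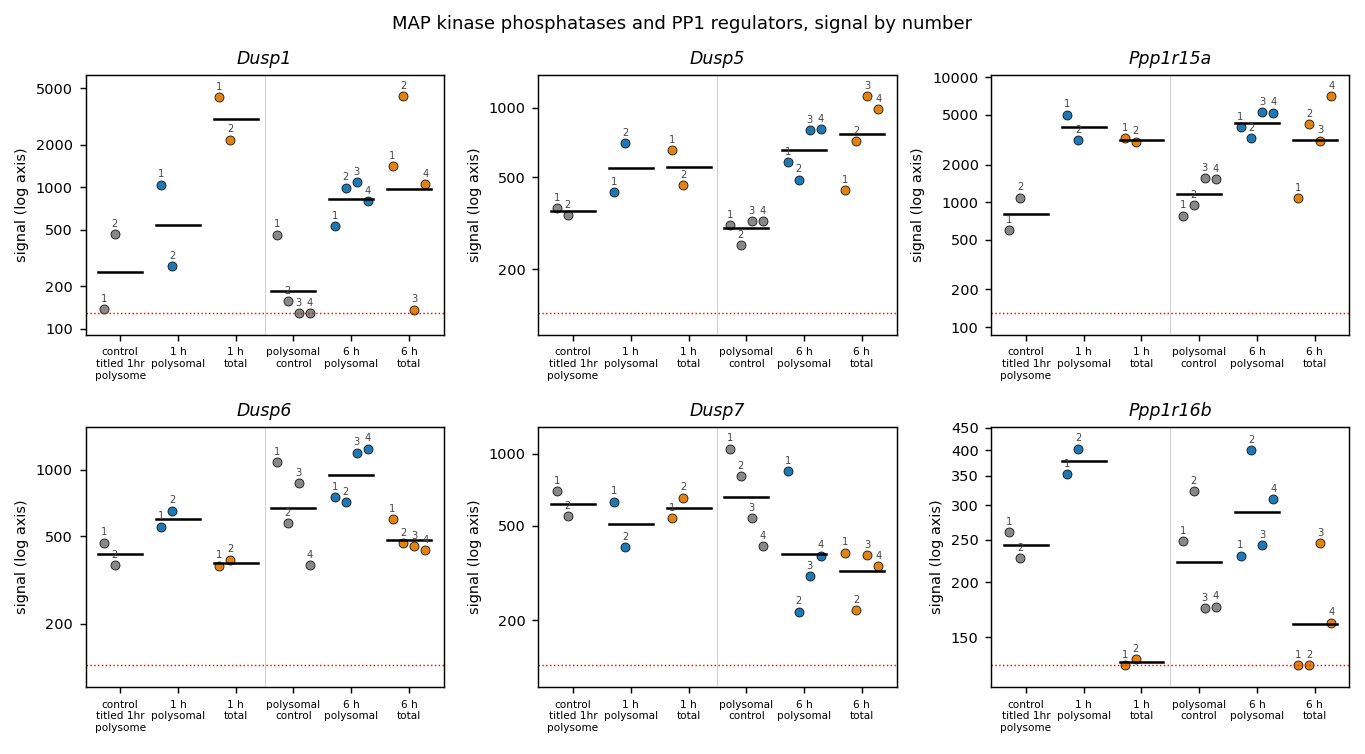
Signal on a log axis of 4 Dusp genes and 2 protein phosphatase 1 regulators in the 6 groups, with 1 dot per number (the mean of its 2 arrays on the log2 scale), the number printed above it, a black line at the group's geometric mean and a red dotted line at the floor of 129.5. For Ppp1r15a all 4 polysomal numbers at 6 h lie above the polysomal control, and for Dusp1 number 3 of 6 h total RNA lies at 137, far below the 3 others.

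At 1 h after contractions the brightest probe sets of the same genes pointed the same way in polysomal RNA, with fewer replicates. Against the control titled 1hr polysome limma called none of the 56, and 0% of all genes. Without adjustment, at a p under 0.05, 3 were higher and 2 lower, with 2.46% and 2.08% of all genes. Ppp1r15a read 5024 and 3156 against 597 and 1088, a difference of 2.30 (SE 0.63, adjusted p = 0.719). The arrays of the lower control number disagreed, at 239 and 1488, both below every array of 1 h polysomal RNA. The response at 6 h differed from that at 1 h by -0.39 for Ppp1r15a, with an adjusted p of 1.00. That change in response was called for no phosphatase and for 0% of all genes. At an unadjusted p under 0.05, 1 phosphatase was higher and 2 lower, with 1.08% and 1.69% of all genes.

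Dusp5 read 433 and 699.9 at 1 h against 369 and 343, so both exercised numbers were above both controls (0.63, SE 0.38, adjusted p = 1.00). Dusp1 read 1044 and 277 against 138 and 469.6, which overlapped. The high control value came from array 2bA, which read 1703, where the 3 other arrays read 85.4 to 146. Without that array the Dusp1 difference was 2.01, in place of 1.08, and that of Dusp5 1.02, neither passing. With all arrays the other probe sets of Dusp1 stood at 0.86 and -0.04.

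Among the 6 groups Dusp1 had its highest mean in 1 h total RNA, with 4299 and 2171. Against the control titled 1hr polysome that was a difference of 3.59 (SE 1.16, adjusted p = 0.264). It passed without array 2bA, at 4.52 with an adjusted p of 0.0447. Title and description of that control disagree on its fraction, so the comparison may mix time, contraction and fraction. No phosphatase was called in it, where 0.0513% of all genes were. At an unadjusted p under 0.05, 7 phosphatases were higher and 2 lower, with 5.25% and 5.89% of all genes. Ppp1r15a stood at 1.97 (adjusted p = 0.26), and its 1 h total signals of 3252 and 3057 were both above the control's.

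Polysomal RNA at 1 h held less Dusp1 than total RNA, by 2.51 on the log2 scale in the estimate (SE 1.16, adjusted p = 0.309), and both other probe sets had this direction. At 6 h, total RNA read 1404, 4388, 137 and 1046, spanning the polysomal values. Number 3, the one with the high actin ratio, was the lowest, and the difference was -1.77 within numbers 1 and 2 and 1.30 within numbers 3 and 4, neither passing. Across the 56 phosphatases that number was lower than the mean of the 3 others by at least 1 log2 unit in 6 genes, and higher in 2, with Ppp1cb (-4.69), Dusp1 (-3.76), Ppp2cb (-2.97) and Ppm1a (-2.51) the furthest. Number 4, which had no such actin ratio, was lower in 5 genes and higher in 1, and numbers 1 and 2 were higher in 5 and 8. The part of RNA quality in these values was not tested.

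**Figure D2:**
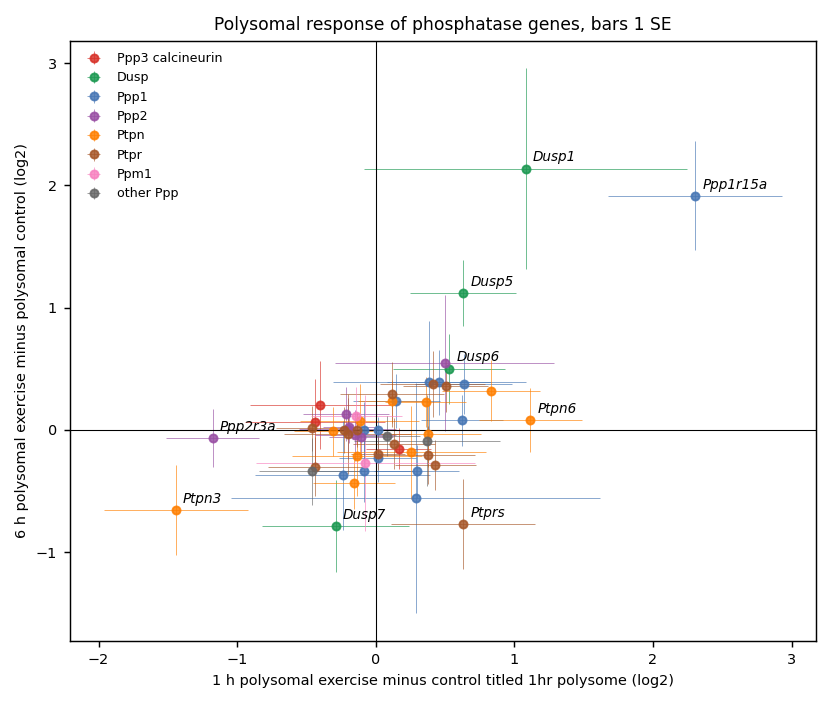
Log2 difference of polysomal RNA from its control at 1 h (x axis) and at 6 h (y axis) for the 56 tested phosphatases, coloured by family, with bars of 1 SE. Ppp1r15a, at 2.30 and 1.91, is high at both times, and Dusp1, at 1.08 and 2.14, is the other gene above 1 on both axes.

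The 2 responses use separate arrays. Over the 56 phosphatases they correlated at a Pearson r of 0.627 and a Spearman rho of 0.449, with the same sign in 33 genes (58.9%). Over all 3902 genes the values were 0.415, 0.195 and 55.3%. Genes share arrays, so these are descriptions across genes with no test.

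Estimates for the calcineurin subunits in polysomal against total RNA pointed in opposite directions, and only that of Ppp3ca passed in the main fit. The catalytic alpha subunit Ppp3ca was higher in polysomal than in total RNA at both times, and passed at both. The regulatory B subunit Ppp3r1, which binds calcium, and the catalytic beta subunit Ppp3cb had the opposite direction at both times without passing. Within numbers 3 and 4 at 6 h Ppp3cb did not keep that direction (0.40). The testis form Ppp3r2 was at the floor on too many arrays to be tested. The actin 3 prime to 5 prime ratio also differed between the fractions, at 2.003 to 4.28 in 1 h polysomal and 2.54 to 4.48 in 6 h polysomal RNA, against 1.22 to 1.62 in 1 h total RNA, and its part in the fraction differences was not tested.

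Ppp3ca read 6997, 9309, 5857 and 7994 in 6 h polysomal RNA and 3611, 3813, 4353 and 4277 in 6 h total RNA. No value overlapped, and the difference was 0.89 (SE 0.17, 1.86-fold, adjusted p = 0.00646). At 1 h the polysomal signals were 7408 and 7103 and the total signals 2975 and 3347, again apart, for 1.20 (SE 0.23, 2.30-fold, adjusted p = 0.0423). Leaving out any number kept the 6 h call (adjusted p of 0.00611 to 0.0249), whereas the 1 h call was lost whichever of its 4 numbers was left out (0.0742 to 0.212). Within numbers 3 and 4 the 6 h difference was 0.67 and did not pass (adjusted p = 0.172), against 1.12 (0.0112) within numbers 1 and 2.

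Against the controls Ppp3ca in polysomal RNA did not move beyond its spread. The polysomal control read 8172, 8560, 9263 and 7206, and the 6 h difference from it was -0.15, with a 95% interval of -0.51 to 0.20. The 1 h difference was 0.16, with an interval of -0.34 to 0.66. Total RNA at 1 h against the control titled 1hr polysome stood at -1.04 (SE 0.23, adjusted p = 0.128). Array 2bA read 3920 in that control where the others read 6934 to 8731, and without it the difference was -1.24 and passed (adjusted p = 0.0126). The arrays left correlated more with 1 h polysomal than with 1 h total RNA, so that comparison may mix fraction and contraction. The omission was chosen after seeing the data.

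Ppp3r1 read 425.5, 368, 374 and 322 in 6 h polysomal RNA and 1605, 1461, 523 and 423 in 6 h total RNA. Number 4 of total RNA overlapped the polysomal values, and the difference of -1.20 (SE 0.36) had an adjusted p of 0.0501. Within numbers 1 and 2 it was -1.95 and passed (adjusted p = 0.00286), and within numbers 3 and 4 it was -0.44 (0.362). Without number 3 of total RNA it was -1.43 (0.0305), and without number 4 it was -1.53 (0.00805).

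At 1 h Ppp3r1 read 301 and 381 in polysomal RNA and 1265 and 1001 in total RNA, with no overlap (-1.73, SE 0.50, adjusted p = 0.115). Its other probe set gave -1.38 at 6 h and -2.18 at 1 h. In all numbers of 1 h polysomal RNA, 6 h polysomal RNA and the polysomal control Ppp3r1 lay between 289 and 425.5. In the control titled 1hr polysome array 2bA read 1284, where the 3 others read 262 to 448.

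Ppp3cb had low signals, 151, 201, 229.9 and 243 in 6 h polysomal and 545, 547, 189.99 and 168 in 6 h total RNA. Numbers 1 and 2 of total RNA were above all polysomal numbers, and numbers 3 and 4 were among them. The difference over all 4 was -0.62 (SE 0.36, adjusted p = 0.276), at -1.65 (0.00161) within numbers 1 and 2 and 0.40 (0.421) within numbers 3 and 4. At 1 h it read 177 and 205 in polysomal and 442 and 421 in total RNA (-1.18, SE 0.51, adjusted p = 0.272).

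**Figure D3:**
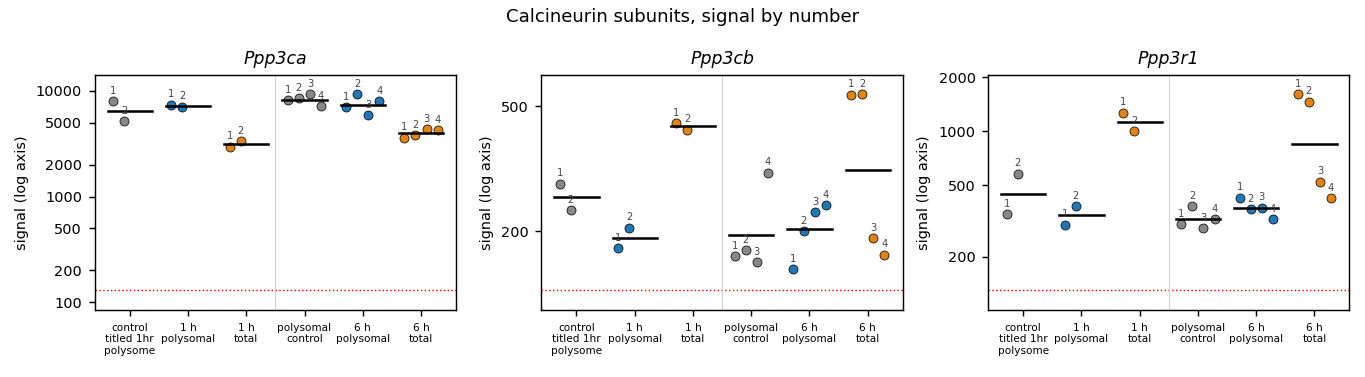
Signal on a log axis of the 3 tested calcineurin subunits in the 6 groups, drawn as in the plot of Dusp genes, with 1 dot per number and black lines at geometric means. Ppp3ca in total RNA (orange, 2975 to 4353) lies below every other group's numbers, while Ppp3r1 in total RNA (423 to 1605) lies mostly above them.

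Of a list of partners and targets of calcineurin, which also holds Camk2 subunits of a separate calmodulin-dependent kinase, 9 genes were tested. In 6 h polysomal against total RNA the kinase subunit Camk2g was higher (1.29), while Camk2d (-0.70) and the transcription factor Mef2d (-0.83) were lower, and the other 6 did not pass, where 9.33% of all genes were called. None of the 9 was called in any of the 9 other comparisons.

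Among all phosphatases, the 6 h comparison of polysomal with total RNA called 3 genes, all higher: Ppp3ca, Ppp1r16b and Dusp6. Of all genes 9.33% were called, 4.38% higher and 4.95% lower. At an unadjusted p under 0.05 there were 4 higher and 12 lower, with 9% and 17.2% of all genes. The median difference of the 56 was -0.20 and that of all genes -0.14. Quantile normalization moved the median of all probe sets from -0.16 to -0.04, so differences here are relative to that shift, and changed the calls over all probe sets (8.77% of 6707) from 253 higher of 588 to 319 of 484. Scaling to the 75th percentile gave 331 of 488, and either scaling kept 3 phosphatase calls, all higher.

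Dusp6 read 749, 711, 1197 and 1248 in 6 h polysomal RNA and 595, 465, 449 and 432 in total RNA. The groups did not overlap, and the difference was 0.97 (SE 0.29, 1.96-fold, adjusted p = 0.048). The call was lost whichever of the 8 numbers was left out, with adjusted p of 0.0511 to 0.129. Within numbers 1 and 2 it was 0.47 (0.319), and within numbers 3 and 4 it was 1.47 (0.0745). The gene's other probe set pointed the opposite way, at -0.46. At 1 h Dusp6 read 552 and 652 against 368 and 391 (0.66, SE 0.41, adjusted p = 0.477), with the other probe set at -1.20.

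Ppp1r16b (TIMAP) brings protein phosphatase 1 to the plasma membrane and is known from endothelium. It read 230.2, 401, 244 and 310.0 in 6 h polysomal and 129.5, 129.5, 245 and 162 in total RNA, where numbers 1 and 2 were at the floor and number 3 overlapped. The difference was 0.85 (SE 0.25, 1.80-fold, adjusted p = 0.0452). Leaving out either of total numbers 1 and 2, or any of polysomal numbers 2, 3 and 4, ended the call (adjusted p of 0.0678 to 0.133). Within numbers 1 and 2 the difference was 1.23 (0.0137), and within numbers 3 and 4 it was 0.46 (0.266). At 1 h it read 353 and 404 against 129.5 and 134 (1.52, SE 0.35, adjusted p = 0.0703). The summed signal of 5 measured endothelial markers, none at the floor on all arrays, was 1205 to 1947 in 6 h polysomal, 1153 to 2107 in 6 h total, 1346 to 1389 in 1 h polysomal and 1745 to 2032 in 1 h total RNA. At 1 h that sum was lower in polysomal than in total RNA, and at 6 h the ranges overlapped. The part of endothelial content in the Ppp1r16b values was not tested.

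**Figure D4:**
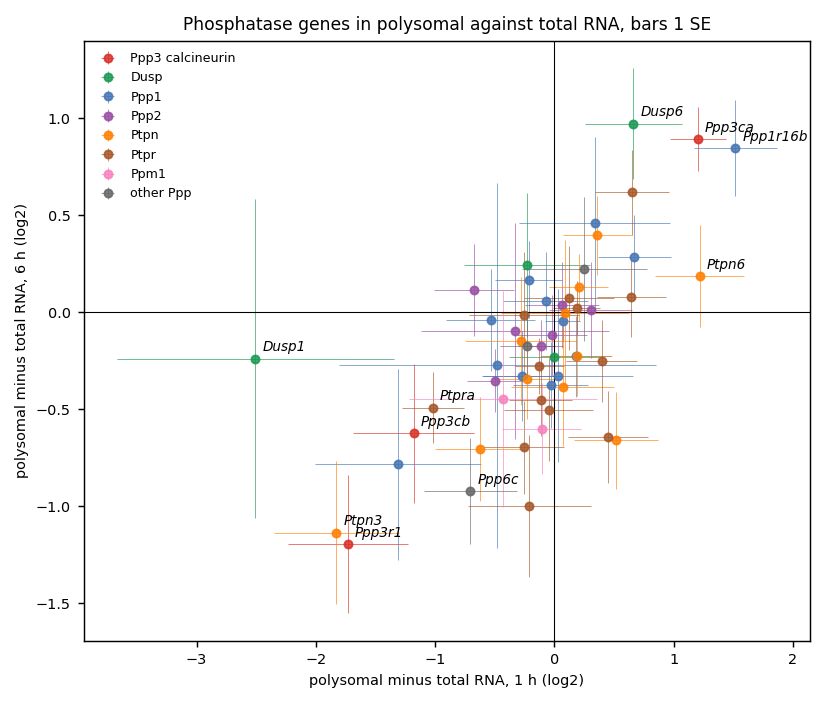
Log2 difference of polysomal from total RNA at 1 h (x axis) and at 6 h (y axis) for the 56 tested phosphatases, coloured by family, with bars of 1 SE. Ppp3ca (1.20 and 0.89) and Ppp1r16b (1.52 and 0.85) lie at the upper right, and Ppp3r1 (-1.73 and -1.20) and Ptpn3 (-1.83 and -1.14) at the lower left.

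The fraction differences at both times, which use separate arrays, correlated over the 56 phosphatases at a Pearson r of 0.651 and a Spearman rho of 0.598. Their sign was the same in 43 genes (76.8%), against 0.530, 0.489 and 68.6% over all genes, again as a description with no test. At 1 h only Ppp3ca was called among the phosphatases, with 0.333% of all genes (0.179% higher and 0.154% lower). At an unadjusted p under 0.05 there were 5 phosphatases higher and 6 lower, with 7.36% and 8.33% of all genes. The change of the fraction difference from 1 h to 6 h was called for no phosphatase and for 0% of all genes, with none higher and 3 lower at an unadjusted p under 0.05 (2.23% and 3.36% of all genes).

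The catalytic subunits of protein phosphatase 1 were among the brightest members. Ppp1ca lay between 2672 and 5784 over all 18 numbers. It stood at -0.23 in 6 h polysomal RNA against control (95% interval -0.65 to 0.19) and 0.17 against total RNA (-0.25 to 0.59). Ppp1cc lay between 1170 and 3173, with -0.33 (-0.87 to 0.20) and 0.06 (-0.48 to 0.60) in the same comparisons. The latter turned from -0.27 (adjusted p = 0.457) within numbers 1 and 2 to 0.38 (0.491) within numbers 3 and 4.

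Ppp1cb, the beta form found in myosin phosphatase, varied far more. In 6 h total RNA it read 9779, 10163, 234 and 2204, and in 6 h polysomal RNA 2752, 5502, 2142 and 739. Numbers 1 and 2 of total RNA were above, and number 3 below, all polysomal values, so the interval of the difference ran from -2.28 to 1.73. Without number 3 the estimate went from -0.27 to -1.45, with an adjusted p of 0.174. Ppp2cb, a catalytic subunit of protein phosphatase 2A, had the same order in total RNA, 1461, 2567, 189.7 and 869.9. The metal-dependent phosphatase Ppm1a, which acts on p38 and SMAD proteins, read 2829, 2546, 277 and 545 there. From numbers 1 and 2 to numbers 3 and 4 the polysomal minus total difference turned from -1.58 (adjusted p = 0.00221) to 0.69 (0.266) for Ppm1a, from -1.36 (0.137) to 0.81 (0.646) for Ppp1cb and from -1.25 (0.0776) to 1.05 (0.362) for Ppp2cb. The difference between these subsets was not tested.

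**Figure D5:**
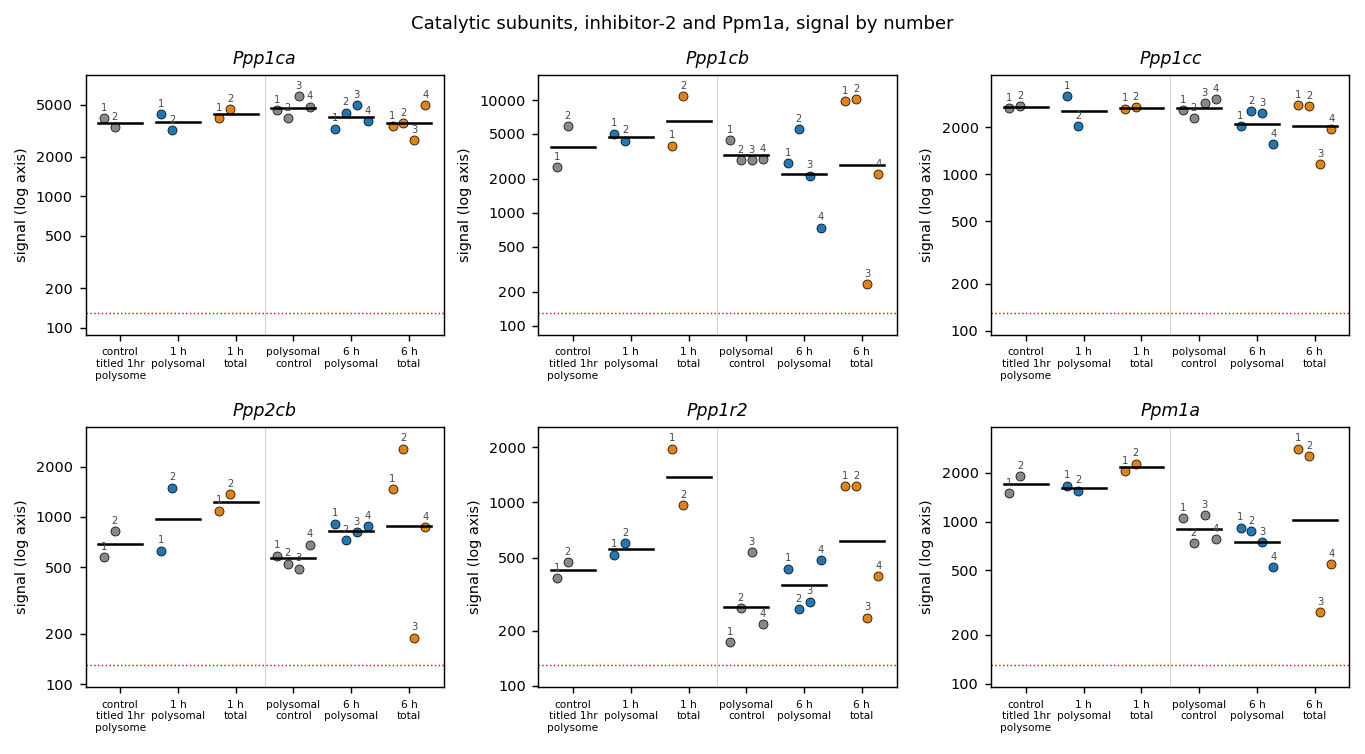
Signal on a log axis of the catalytic subunits Ppp1ca, Ppp1cb, Ppp1cc and Ppp2cb, of inhibitor-2 (Ppp1r2) and of Ppm1a in the 6 groups, with 1 dot per number, its number above it and black lines at geometric means. In 6 h total RNA (orange) number 3 is the lowest in all 6 panels, at 234 for Ppp1cb.

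Inhibitors and targeting subunits of protein phosphatase 1 gave no call beyond Ppp1r16b. Inhibitor-1, Ppp1r1a, which blocks the phosphatase when phosphorylated by protein kinase A, was the brightest member (mean signal 8349). Its numbers in 1 h polysomal RNA were 16812 and 2586, the latter from 1 array at 778 and another at 8590.0. The same array, titled 2aA, read 196 for Ppp5c, where the other array of its number read 629. Inhibitor-2, Ppp1r2, read 1967 and 971 in 1 h total RNA and 519 and 599 in 1 h polysomal RNA (-1.31, SE 0.70, adjusted p = 0.386). At 6 h it stood at -1.86 (0.0118) within numbers 1 and 2 and 0.29 (0.761) within numbers 3 and 4. Ppp1r12a, which targets the phosphatase to myosin, read 857 and 987 in 1 h polysomal and 597 and 560.4 in 1 h total RNA (0.67, SE 0.31, adjusted p = 0.301). Its 6 h minus 1 h difference in polysomal RNA was -0.61 (adjusted p = 0.838). Of its other probe sets 1 shared the direction in each of these comparisons and 1 did not. Its 6 h polysomal minus total difference was 0.72 (0.0102) for numbers 1 and 2 alone and -0.15 (0.729) for the other pair.

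Of 8 tested glycogen enzymes on which protein phosphatase 1 acts, Gsk3b was higher (1.64) and Pygb lower (-0.69) in 6 h polysomal than in total RNA, where 9.33% of all genes were called. Of 6 tested contractile and calcium proteins acted on by protein phosphatases 1 and 2A none was called in any comparison, that one included.

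In the protein phosphatase 2A family the regulatory subunit Ppp2r3a, which binds calcium, had the smallest p in polysomal RNA over time. It read 1292 and 1976 at 1 h and 3394, 5662, 3040 and 3686 at 6 h, and the means of numbers did not overlap (1.26, SE 0.29, adjusted p = 0.532). The 2 arrays of each 1 h polysomal number disagreed, however, at 378 and 4420 in number 1 and 1086 and 3595 in number 2. In both numbers the higher array lay within the range of the 6 h arrays, so the low means rest on 1 array of each number. The other probe set gave 0.15 over time. The control titled 1hr polysome read 3066 and 4260 and the polysomal control 5031, 5081, 3527 and 2866, above both means at 1 h, which rest on those low arrays. Against its control the 1 h difference was -1.18 (SE 0.34, adjusted p = 0.737), and its other probe set stood at -0.57. In polysomal RNA over time no phosphatase was called, nor was any gene (0%), but Ppp2r3a passed with the replicate block (1.44, adjusted p = 0.0302). Nothing in the labels ties a number at 1 h to the same number at 6 h. There were 1 phosphatase higher and 3 lower at an unadjusted p under 0.05 (2.74% and 3.36% of all genes).

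The scaffold subunit Ppp2r1a read 3645 and 3737 in 1 h total RNA, above every other number. In 6 h total RNA it read 2555, 2560.0, 2616 and 3211, a difference of -0.44 over time (SE 0.20, adjusted p = 0.64). Polysomal RNA was below total RNA at both times, by an estimate of -0.50 at 1 h (adjusted p = 0.307) and -0.35 at 6 h (0.182), with no overlap at either time. Between 6 h and 1 h total RNA no phosphatase was called, and 0.0256% of all genes were. At an unadjusted p under 0.05, 3 phosphatases were higher and 2 lower, with 4.1% and 3.46% of all genes.

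Ppp6c, the catalytic subunit of protein phosphatase 6, read 189.9, 221, 244 and 297 in 6 h polysomal and 691, 431, 439 and 299 in 6 h total RNA. The groups met without overlapping, at 297 and 299, and the difference was -0.92 (SE 0.27, adjusted p = 0.0505), at -1.41 (0.02) within numbers 1 and 2 and -0.43 (0.491) within numbers 3 and 4. At 1 h it read 280.1 and 398 against 609.7 and 487 (-0.71, SE 0.39, adjusted p = 0.41). Ppp5c, which works with the chaperone Hsp90, spanned 352 to 744 in the 2 numbers of 1 h polysomal RNA and gave no call. Ppm1b stood at -0.60 at 6 h (SE 0.23, adjusted p = 0.116), with -1.005 (0.0114) within numbers 1 and 2 and -0.19 (0.65) within numbers 3 and 4. Another of its 4 probe sets passed at -0.70 (0.0394), and all 3 others had this direction.

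None of the 24 tested tyrosine phosphatases was called by its brightest probe set in any of the 10 comparisons. The share of all genes called was 9.33% for 6 h polysomal against total RNA and between 0% and 0.384% in the 9 others. Ptpn3, a phosphatase at the membrane skeleton, had the lowest polysomal minus total differences among them. It read 2682 and 2169.8 in 1 h total RNA and 1183 and 390.2 in 1 h polysomal RNA (-1.83, SE 0.52, adjusted p = 0.11). At 6 h it read 1633, 1245, 839 and 953 in total and 336, 676, 589 and 523 in polysomal RNA, with no overlap (-1.14, SE 0.37, adjusted p = 0.0685). Its other probe set had this direction at both times. The polysomal control stood at -1.19 against the control titled 1hr polysome for Ptpn3, the only phosphatase at an unadjusted p under 0.05 between them. Array 2bA of the latter control read 3926, where its other arrays read 1219 to 1725, and without it the difference was -0.89 (adjusted p = 0.975). Between the 2 controls 0% of all genes were called, with 3.25% higher and 2.69% lower at an unadjusted p under 0.05.

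Ptpra, a receptor phosphatase that activates Src kinases, read 418 and 433 in 1 h total RNA and 189.6 and 232 in 1 h polysomal RNA (-1.02, SE 0.26, adjusted p = 0.096). At 6 h the groups overlapped (-0.49, SE 0.18, adjusted p = 0.105), with -0.58 (0.0319) within numbers 1 and 2 and -0.41 (0.41) within numbers 3 and 4. Ptpn12 (PTP-PEST), a regulator of cell adhesion, stood at -1.25 (0.00483) and -0.16 (0.736) in the same subsets. The cell contact receptor Ptprm read 406, 453, 428 and 494 in 6 h total RNA, above the polysomal values of 329.6, 338, 244 and 209 (-0.69, SE 0.24, adjusted p = 0.0835). For the insulin receptor phosphatase Ptpn1, 1 of 5 probe sets was called at 6 h (1.61, adjusted p = 0.011), but the probe sets disagreed in direction. Its brightest was not called and pointed the opposite way, and the others did not pass, at -0.34, -0.48 and 0.35. In 6 h total RNA that brightest probe set read 1369 and 1307 in numbers 1 and 2 and 4301 and 3070.5 in numbers 3 and 4.

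Ptpn6 (SHP-1) and Ptprc (CD45) are phosphatases of blood cells. Ptpn6 read 202.3 and 449.7 in 1 h polysomal RNA and lay at the floor in both 1 h total numbers, where it was at least 2.33-fold lower (adjusted p = 0.137). Against the control titled 1hr polysome, at 129.5 and 149.7, it stood at 1.12 (SE 0.37, adjusted p = 0.99). The other tested probe set of Ptpn6 stood at only 0.12 in each of these comparisons. Ptprc read 293 and 302 in 1 h polysomal RNA and 251 and 189 in 1 h total RNA (0.45, adjusted p = 0.588). At 6 h its polysomal values of 295, 163, 172 and 172 overlapped the total values of 213, 301, 401 and 329.6 (-0.64, SE 0.24, adjusted p = 0.101).

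Of 14 leukocyte and macrophage markers, Ptprc among them, 9 were measured, none at the floor on all arrays. Their summed signal was 5318 to 10978 in 1 h polysomal and 4353 to 4539 in 1 h total RNA, and 3663 to 3690.0 in the control titled 1hr polysome. It was 5699 to 17100 in 6 h polysomal, 4237 to 7399 in 6 h total RNA and 5153 to 7546 in the polysomal control. Its part in the Ptpn6 and Ptprc values was not tested.

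Of 16 tested genes of the MAP kinase cascades, the upstream kinases Map3k1 (1.20) and Araf (-0.51) were higher and lower in 6 h polysomal than in total RNA, where 9.33% of all genes were called. The Dusp family acts on the MAP kinases at the end of these cascades. Of 18 tested insulin and growth factor receptors and adaptors, the Src family kinase Fyn was higher (1.24), and the hepatocyte growth factor receptor Met (-0.80) and the insulin receptor substrate Irs2 (-0.90) were lower in the same comparison. No gene of either list was called in the 9 other comparisons.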

How the data were processed

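The authors deposited 1 table of intensity signals on a linear scale, 1 value per probe set and array, already scaled. Software, background correction and summary method are not given in the sources used here, and the target of the scaling is unknown. Of 8799 probe sets 59 are controls and were dropped. The other 8740 hold 7006 with 1 symbol in the platform annotation, 308 with several and 1426 with none. All 65 member symbols were unchanged in a table of current rat genes. Signals were floored at the 40th percentile (129.5), log2 was taken, the 2 arrays of a number were averaged, and the 6707 probe sets with 4 or more arrays exceeding the floor entered a single limma 3.58.1 model of all groups in R 4.3.3 (12 residual degrees of freedom, two-sided). Counts of genes use the brightest probe set, 3902 genes in all. The number of arrays limits the precision.

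The 10 comparisons set polysomal RNA against control and against total RNA at each time, the later against the earlier time, and 1 h total RNA and the polysomal control against the control titled 1hr polysome, and tested how response and fraction difference changed with time. Equal numbers of 6 h polysomal RNA and the polysomal control deviated together over probe sets (correlations of 0.431 to 0.538 for the 4 numbers, from the data). No label names them as pairs. The main fit has no block, and the number entered as a block only in an alternative fit. Alternatives were quantile and 75th percentile scaling, a floor at the 20th percentile, no filter, all probe sets, each array as a sample, the replicate block, the other control, numbers left out and subsets of numbers. Omitting array 2bA was added after seeing the data. Named genes were all Ppp3 and Dusp members, catalytic Ppp1 and Ppp2 subunits, called members and, per family and comparison, the smallest p; Ppp1r1a and Ptpn1 were added after their values were seen. Members and lists were chosen with earlier results of these data known.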

Additional observations from a re-analysis of the deposited data

Results flagged for a closer look

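In groups of 4 numbers, 97 sets of values of named phosphatases were examined for a number far from the 3 others, and 9 had one. The cut-off flags about 1 in 20 sets of independent, normally distributed values. The sets here share samples across genes and some hold values at the floor, so the count cannot be set against that rate. In the polysomal control these were Dusp1 in number 1 (463.5, the others 129.5 to 156), Dusp5 in number 2 (255, the others 311 to 323), Ppp1cb in number 1 (4413, the others 2922 to 2991), Ppp3cb in number 4 (307.6, the others 159 to 174) and Ptpn12 in number 4 (194, the others 129.5 to 134). In 6 h total RNA they were Ppp2r1a in number 4 (3211, the others 2555 to 2616) and Ptpn6 in number 3 (232, the others 129.5 to 135). In 6 h polysomal RNA they were Ptpn18 in number 3 (211.6, the others 279 to 291) and Ptprc in number 1 (295, the others 163 to 172). Numbers 3 and 4 of Dusp1 in the polysomal control were at the floor, so their spread is not known. The other numbers of Ptpn12 in the polysomal control and of Ptpn6 in 6 h total RNA also lay at or near the floor. The part of the floor in the count of 9 was not tested.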

How the results depend on the processing

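Ppp3ca at both times, and Dusp6 and Ppp1r16b at 6 h, kept their direction of polysomal against total RNA in every alternative fit of their brightest probe set, while another probe set of Dusp6 pointed the opposite way (-0.46). With 6 h polysomal RNA against its control, the count of called phosphatases went from 0 to 1 with the replicate block and to 1 with each array as a sample, in both cases Ppp1r15a. For 6 h polysomal against total RNA the 3 calls became 5 over all probe sets, 1 without a filter, 6 with each array as a sample, 11 (3 higher, 8 lower) with numbers 1 and 2 only and 0 with numbers 3 and 4 only. Leaving out 1 number gave 1 to 7, with 7 without total number 4. For 1 h polysomal against total RNA the 1 call became 3 with quantile normalization, 2 with 75th percentile scaling, 0 with the lower floor and 4 with each array as a sample, and 0 to 2 with 1 number left out. Polysomal RNA at 6 h against 1 h went from 0 to 1 with the replicate block (Ppp2r3a, 1.44, adjusted p = 0.0302), although no label ties the numbers of these times. Total RNA at 1 h against the control titled 1hr polysome went from 0 to 2 with each array as a sample, and to 2 without array 2bA. These 6 h numbers deviated together only weakly between total and polysomal RNA (correlations of 0.0726 to 0.248), and the replicate block there gave 2 calls, Ppp3ca and Ppp3r1 (adjusted p = 0.0385). In the 1 h groups the correlations were 0.0122 to 0.2. With 2 numbers in a group the deviations from its mean mirror each other, so both numbers give the same correlation by construction. These values cannot decide whether the 1 h numbers are pairs. The cause of these shifts was not tested, apart from fewer samples in the subsets.

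With 2 to 4 numbers in a group, differences near 1 log2 unit often missed the threshold, and 9 of 65 genes were too dim to test. Signals near the floor understate a change, and levels of different probe sets cannot be compared as amounts of RNA.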
